A study of Mus musculus with 12 samples.

Results

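The ionotropic and metabotropic glutamate receptors and the GABA receptors are described here through the transcripts of their subunit genes in whole spinal cord of mice. A gene was taken as a member when its symbol began with Gria, Grid, Grik, Grin, Grm, Gabra, Gabrb, Gabrg, Gabrd, Gabre, Gabrr or Gabbr in the form that names a subunit, and when its expected count averaged 10 or more over the 12 libraries. This gave 42 members of the 38924 genes in each deposited table. They were 25 glutamate receptor genes, 16 GABA receptor genes and Grid2ip, whose symbol fits the pattern but which encodes delphilin, a scaffold protein of excitatory synapses. Another 4 genes fitted the pattern and stayed under the minimum: Gabra6 and Gabrr3 had a mean expected count of 0, Grm6 had 0.58 and Gabrr1 had 1.58. The lowest members above it were Gabrd, with a mean of 22.8, and Gabrr2, with 43.9. Each of the 42 members passed the filter on low counts.

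C201R animals carried the change of that name in 1 copy of Gars, the gene of glycyl-tRNA synthetase, and were set against wild-type (WT) animals. Both genotypes had the strain background B6J.Cg and were 8 weeks old, and the titles list 3 females and 3 males of each. The genotype tag reads C201R+/- in libraries titled C201R and C201R+/+ in libraries titled WT. The 2 sets of labels disagreed in 4 of the 12 libraries. By the library name in the sample description, libraries 1, 2, 3, 4, 9 and 10 were C201R and libraries 5, 6, 7, 8, 11 and 12 were WT. By the title, libraries 11 and 12 were C201R and libraries 4 and 9 were WT. By library name the titled sexes were uneven between the genotypes. C201R libraries 1 and 4 were titled female and 2, 3, 9 and 10 male. WT libraries 5, 6, 11 and 12 were titled female and 7 and 8 male. Genotypes are given by library name unless the title is mentioned, and the 8 libraries whose labels matched were also compared alone (C201R 1, 2, 3 and 10, WT 5, 6, 7 and 8). The labels do not say that each library came from its own animal, and a p-value therefore speaks of the spread among libraries, which may be technical.

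Glutamate opens ion channels built from AMPA, kainate or NMDA subunits, and acts more slowly through metabotropic (mGlu) receptors that signal by G proteins. GABA opens chloride channels of the GABA-A class, usually assembled from alpha, beta and gamma subunits, and acts through the GABA-B receptor, a pair of G protein-coupled subunits. In the spinal cord these receptors carry excitation from sensory and descending fibres to interneurons and motor neurons, and inhibition from local GABA neurons, beside glycine.

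The transcripts of AMPA and kainate subunits hold a glutamine codon for the pore, the Q/R site, whose residue sets how much calcium passes. In some of these subunits, Gria2 among them, RNA editing can turn it into an arginine codon. The stretch around it is shown because it is the best-known point at which these subunits differ in function, and because the deposited values count genes and therefore hold no information on editing. The coding strand is given from 5′ to 3′ with the Q/R-site codon in capitals, read from the GENCODE M21 transcripts of GRCm38.
Gria1: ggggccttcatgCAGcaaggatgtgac
Gria2: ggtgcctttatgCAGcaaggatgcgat
Gria3: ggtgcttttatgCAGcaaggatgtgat
Gria4: ggtgcctttatgCAAcaaggatgtgac
Grik1: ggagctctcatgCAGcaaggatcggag
Grik2: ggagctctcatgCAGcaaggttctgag
The AMPA stretches lie within a single coding exon each, at chr11:57243082-57243108 (plus strand, Gria1), chr3:80706899-80706925 (minus, Gria2), chrX:41610253-41610279 (plus, Gria3) and chr9:4464125-4464151 (minus, Gria4). The kainate stretches span an exon junction, at chr16:87936108-87940556 (minus, Grik1) and chr10:49240789-49244343 (minus, Grik2). Against the 27 bases of Gria2, Gria3 differed at 2, Gria4 at 3, Gria1 at 4, Grik1 at 7 and Grik2 at 8. Every one of the 6 carries a glutamine codon in the genome, which does not mean that each is edited.

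Summed expected counts per library ran from 27175421 to 38271405. Gars itself had 118 to 134 TPM (the deposited abundance scaled by transcript length) in C201R libraries and 104 to 122 TPM in WT libraries. Its log2 difference was 0.15 (edgeR's quasi-likelihood test, adjusted p = 0.0343), and gene counts cannot show the C201R base change. Levels of sex-linked transcripts differed from the titled sex in 6 libraries, and the titled sex was the term used in the fits. Xist was above the summed Y-linked genes in 6 libraries, 3 C201R and 3 WT by library name, but 5 C201R and 1 WT by title. Markers of oligodendrocytes (23550 to 30330 TPM in sum), inhibitory interneurons (564 to 656 TPM) and motor neurons were present in every library, as were those of skeletal muscle, at 148 to 3801 TPM. The libraries also fell into 2 sets of 6 by the mitochondrial transcript mt-Atp8, at 41138 to 53782 TPM in libraries 1, 2, 3, 5, 7 and 8 and at 16698 to 24359 TPM in the rest. Each set held 3 C201R and 3 WT libraries by either label. The labels name 2 library preparation kits without saying which library was made with which.

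Levels are compared between genes in TPM, as mean ± SD over the 12 libraries. Some orders of genes by TPM change without its scaling by transcript length. GABA-B subunits had the highest summed level of the 12 families, at 366 ± 15.1 TPM, followed by NMDA subunits at 261 ± 15.4 TPM and AMPA subunits at 242 ± 7.17 TPM. The GABA-A alpha subunits summed to 164 ± 5.54 TPM, and the beta and gamma subunits to 89.2 ± 3.39 and 89.4 ± 4.09 TPM. Kainate subunits summed to 97.8 ± 4.42 TPM. The mGlu receptors were lower, at 53.0 ± 3.03 TPM for group I, 51.0 ± 3.49 TPM for group III and 20.6 ± 1.45 TPM for group II. The delta subunits had 28.9 ± 1.10 TPM, and the remaining GABA-A subunits (Gabrd, Gabre and Gabrr2) had 3.95 ± 0.266 TPM. The levels of group I and group III, and those of the beta and gamma sums, differed by less than 1 SD. Members varied little between libraries: the median SD of log2 CPM (TMM-scaled counts, the unit of the tests) was 0.0846 for the 42 members and 0.114 for the 17553 genes tested that had a count in every library. The members were not matched to those genes by count, which also affects this SD.

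**Figure D1:**
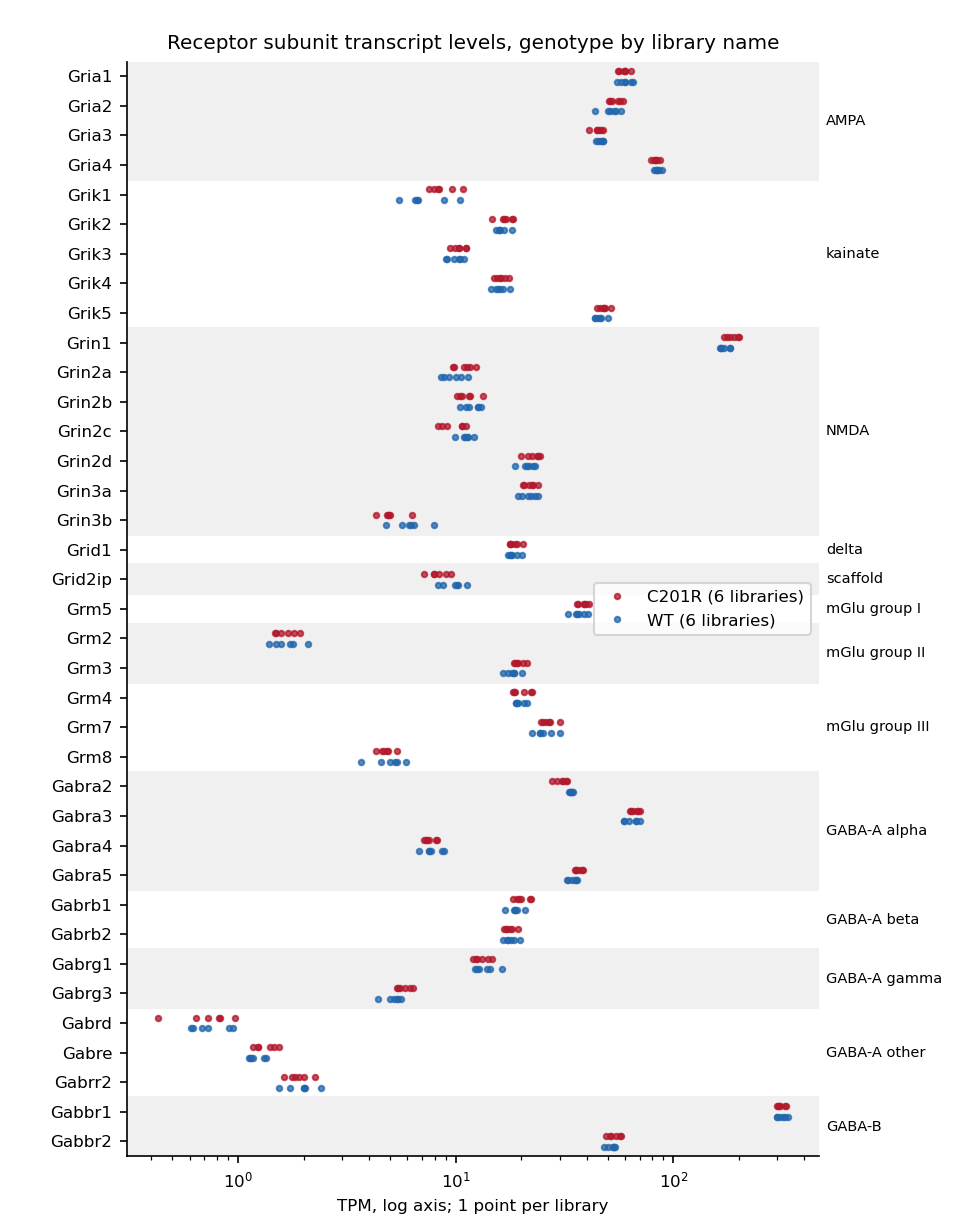
TPM of the members described by name on a log axis, 1 point per library, with C201R libraries (red) above WT libraries (blue) for each gene and family names at the right. Gabbr1 lies highest, at 314 TPM on average, and Gabrd lowest, at 0.743 TPM, and for most genes the points of the genotypes overlap.

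By edgeR, no receptor subunit gene passed the test over all genes between C201R and WT libraries, whichever label gave the genotype, while DESeq2 called Gabra2 by library name and Grin2c in the 8 libraries with matching labels. By library name, edgeR's quasi-likelihood test called 0 of 42 members at an adjusted p under 0.05, while it called 0.715% of all 17765 genes tested (127 genes). Leaving out each library moved that number of genes to between 54 (without library 7) and 221 (without library 9). At an unadjusted p under 0.05 there were 9 of 42 members (21.4%), beside 12.8% of all genes. They were Gabra2, Grid2ip, Grin3b, Grin2c, Gria4 and Gria3, with lower values in C201R libraries, and Grin1, Grin2a and Grm7, with higher values. DESeq2 called 2 of the 41 members to which it gave an adjusted p (4.88%), Gabra2 and Grid2ip, beside 2.29% of all genes with one. Among the members 19 log2 differences were above 0 and 23 below, with a median of -0.01 beside 0.00 over all genes tested. The 95% interval of the difference lay within 0.25 of 0 on the log2 scale for 29 members and within 0.5 for 40. The wider intervals belonged to Gabrd and Grik1. Groups did not overlap for 1 of 42 members, Grid2ip, beside 1.64% of all genes (1.05% with lower C201R values, as for Grid2ip). In bulk tissue, fewer cells of a type and less RNA per cell cannot be told apart.

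**Figure D2:**
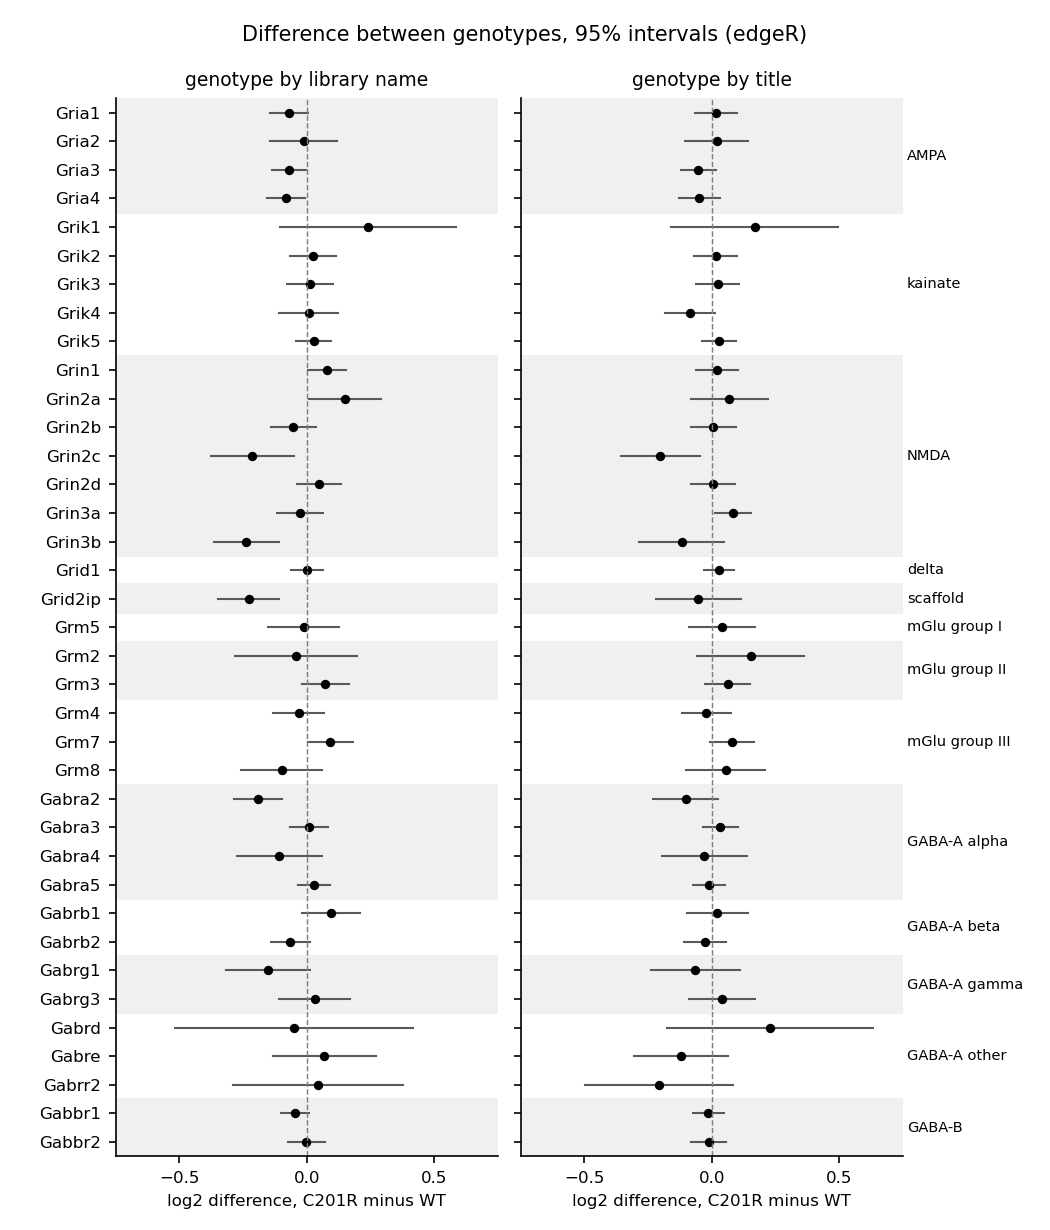
Log2 difference between C201R and WT libraries (points) with its 95% interval (lines) for each member described by name, by library name at the left and by title at the right. All points lie between -0.24 and 0.24 by library name, and there the intervals of Gabra2, Grid2ip, Grin3b, Grin2c, Gria4 and Gria3 lie below 0 and those of Grin1, Grin2a and Grm7 above 0.

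AMPA subunits form the fast excitatory channels, and all 4 were abundant. Gria4 (GluA4), a subunit typical of rapid channels, made up 34.6 ± 0.898% of AMPA transcripts, Gria1 24.7 ± 1.18%, Gria2, the subunit whose edited form limits calcium entry, 21.9 ± 1.35%, and Gria3 18.8 ± 0.722%. Without the scaling by transcript length Gria2 was above Gria1, at means of 186 and 164 CPM, with ranges that overlapped. Gria4 had 181, 188 and 200.3 CPM (lowest, median and highest) in C201R libraries, and 186, 197 and 208 CPM in WT libraries. Its ranges overlapped, and the fitted log2 difference (with its SE) was -0.08 ± 0.03 (edgeR adjusted p = 0.349). Gria3 had 105, 109 and 113 CPM in C201R libraries and 106, 113 and 119 CPM in WT libraries, so that the log2 difference was -0.07 ± 0.03 (edgeR adjusted p = 0.377). The summed AMPA level was 241 ± 5.35 TPM in C201R libraries and 243 ± 9.07 TPM in WT libraries (SD, n = 6 each), which differed by less than their spread.

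Kainate subunits modulate release and excitability. Grik5 (GluK5), which forms channels only together with GluK1 to GluK3, held 47.9 ± 1.57% of kainate transcripts, ahead of Grik2 with 17.0 ± 0.805%, Grik4 with 16.5 ± 1.02%, Grik3 with 10.4 ± 0.489% and Grik1 with 8.27 ± 1.58%. Grik2 and Grik4 did not differ beyond their spread. The order below Grik5 rests on the scaling by transcript length, on average 8973 bases for Grik3 and 4154 bases for Grik2. Without that scaling Grik3 was above Grik2 and Grik4, at means of 47.0, 34.9 and 32.6 CPM. Grik5 had 89.1, 90.8 and 96.5 CPM in C201R libraries and 85.9, 88.7 and 94.1 CPM in WT libraries, so the ranges overlapped (log2 difference 0.03 ± 0.03, edgeR adjusted p = 0.785). Grik4, among the members of lowest p by title, had 29.4, 32.0 and 33.8 CPM in libraries titled C201R and 31.1, 33.8 and 35.7 CPM in libraries titled WT. The log2 difference by title was -0.08 ± 0.05 (edgeR adjusted p = 0.775).

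Grik1 (GluK1), the kainate subunit known from small sensory neurons of dorsal root ganglia, varied more than any other glutamate receptor member, with an SD of log2 CPM of 0.287. Its values were 9.88, 14.5, 11.1, 10.6, 10.00 and 12.1 CPM in C201R libraries 1, 2, 3, 4, 9 and 10, and 9.06, 13.9, 8.86, 7.48, 8.37 and 11.4 CPM in WT libraries 5, 6, 7, 8, 11 and 12. Libraries 2 and 6, 1 of each genotype, were the highest. The summed TPM of 8 dorsal root ganglion markers (among them Scn10a, Scn11a, Avil, Trpv1, P2rx3, Mrgprd and Th, and none of the 8 at 0 in every library) was also highest in libraries 2 (41.7) and 6 (49.99) and was between 5.88 and 11.0 in libraries 1, 3, 5, 7, 8, 9 and 11. By group the marker sum ran from 7.09 to 41.7 TPM in C201R libraries and from 5.88 to 49.99 TPM in WT libraries. The part of ganglion RNA in the Grik1 values was not tested. The genotype difference of Grik1 was 0.24 ± 0.16 (edgeR adjusted p = 0.587).

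**Figure D3:**
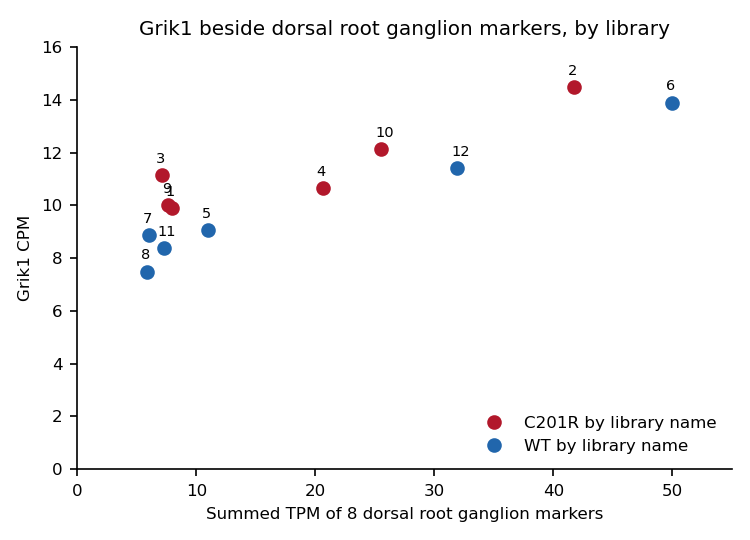
Grik1 CPM (vertical axis) beside the summed TPM of 8 dorsal root ganglion markers (horizontal axis), 1 point per library, with the library number and with C201R in red and WT in blue. Libraries 2, 6, 10 and 12 have both the highest Grik1 values, 11.4 to 14.5 CPM, and the highest marker sums.

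NMDA channels contain the obligatory glycine-binding subunit GluN1 (Grin1) with glutamate-binding GluN2 or glycine-binding GluN3 subunits. Grin1 alone had 179 ± 12.4 TPM, 68.5 ± 1.21% of NMDA transcripts. Among the GluN2 genes, Grin2d (GluN2D) held the largest share, 40.4 ± 1.58%, followed by Grin2b with 21.3 ± 1.81%, Grin2c with 19.2 ± 2.09% and Grin2a with 19.0 ± 1.56%, whose ranges over the libraries overlapped. This order rests on the scaling by transcript length, on average 4250 bases for Grin2d and 16350 bases for Grin2b. Without that scaling Grin2b was above Grin2d, at means of 98.3 and 47.4 CPM. Grin3a made up 79.6 ± 3.51% of the GluN3 transcripts, and Grin3b, known for its expression in motor neurons, the rest.

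Grin1 had 329.7, 351 and 364 CPM in C201R libraries and 318, 327 and 345 CPM in WT libraries. The ranges overlapped, and the log2 difference was 0.08 ± 0.03 (edgeR adjusted p = 0.361). With the library number as a linear term, Grin1 was the only member called, at a log2 difference of 0.13 (edgeR adjusted p = 0.0304). Its share of NMDA transcripts was 69.5 ± 0.417% in C201R libraries and 67.6 ± 0.904% in WT libraries, and the lowest C201R library (68.9%) was above the highest WT library (68.8%). By title these shares overlapped. Shares were compared for 41 subunit genes, and only those of Grin1 and Gabra2 separated by library name, each by a thin margin. No rate of such separation among other genes is given here. The share of Grin1 draws on the same counts as its test and adds no separate support to it. Grin1 shares 1307 exonic bases with the antisense gene Grin1os, and the strand setting of the authors' counting is not given in the sources used here. Grin2a (GluN2A) had 23.7, 25.8 and 28.0 CPM in C201R libraries and 20.8, 23.4 and 25.5 CPM in WT libraries, with overlap and a log2 difference of 0.15 ± 0.07 (edgeR adjusted p = 0.362).

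Grin3b, at chr10:79970715-79977190 (plus strand), was among the genes with the lowest p. It had 6.06, 6.81 and 7.66 CPM in C201R libraries and 7.41, 8.57 and 9.73 CPM in WT libraries. Library 4, the highest C201R library, and library 1 lay above the lowest WT library, 8. The log2 difference was -0.24 ± 0.06 (edgeR adjusted p = 0.105), and by title -0.12 ± 0.08 (edgeR adjusted p = 0.837). Grin3b shares 1059 exonic bases with Tmem259 on the opposite strand, so part of its reads may not be its own.

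Grin2c (GluN2C), at chr11:115249169-115267243 (minus strand), had 19.4, 22.4 and 25.02 CPM in C201R libraries and 22.3, 26.2 and 27.5 CPM in WT libraries. The ranges overlapped through libraries 4, 9 and 10 among the C201R libraries and library 11 among the WT libraries. The log2 difference was -0.21 ± 0.08 by library name (edgeR adjusted p = 0.262) and -0.20 ± 0.07 by title (edgeR adjusted p = 0.671). Libraries 1, 2 and 3 had 21.1, 19.4 and 20.2 CPM and libraries 5, 7 and 8 had 26.1, 25.6 and 27.0 CPM. These are the 6 libraries of high mt-Atp8, a split made after seeing the data, and all have matching labels. Among them the log2 difference was -0.38 ± 0.05 (edgeR adjusted p = 0.0591). Among the 6 libraries of low mt-Atp8 it was -0.07 ± 0.12 (edgeR adjusted p = 0.906), and the difference between these sets was not tested.

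Grin3a (GluN3A), the member of second lowest p by title, had 78.2, 83.7 and 84.9 CPM in libraries titled C201R and 74.3, 77.4 and 81.8 CPM in libraries titled WT. The ranges overlapped, and the log2 difference by title was 0.08 ± 0.03 (edgeR adjusted p = 0.679). The library names gave -0.03 ± 0.04 (edgeR adjusted p = 0.850).

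Delta subunits bind cerebellins at synapses and belong to the ionotropic family by sequence. Grid1 was 1 of the steadiest members, with an SD of log2 CPM of 0.0434. It had 52.3, 54.4 and 57.1 CPM in C201R libraries and 53.7, 54.3 and 57.6 CPM in WT libraries (log2 difference 0.00 ± 0.03, edgeR adjusted p = 0.989).

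Grid2ip, at chr5:143357338-143392152 (plus strand), had 12.4, 13.6 and 14.1 CPM in C201R libraries and 14.1, 16.1 and 17.1 CPM in WT libraries. Each C201R library was below each WT library, although the highest C201R library, 9, and the lowest WT library, 8, were equal to 3 digits. The log2 difference was -0.23 ± 0.06 (edgeR adjusted p = 0.0969). DESeq2 called it, at an adjusted p of 0.0338, and edgeR did so without the titled sex term (adjusted p = 0.0436) and without library 8 (adjusted p = 0.0487). By title the groups overlapped, with a log2 difference of -0.05 ± 0.08 (edgeR adjusted p = 0.939). Grid2ip shares 645 exonic bases with the antisense gene Gm20635.

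**Figure D4:**
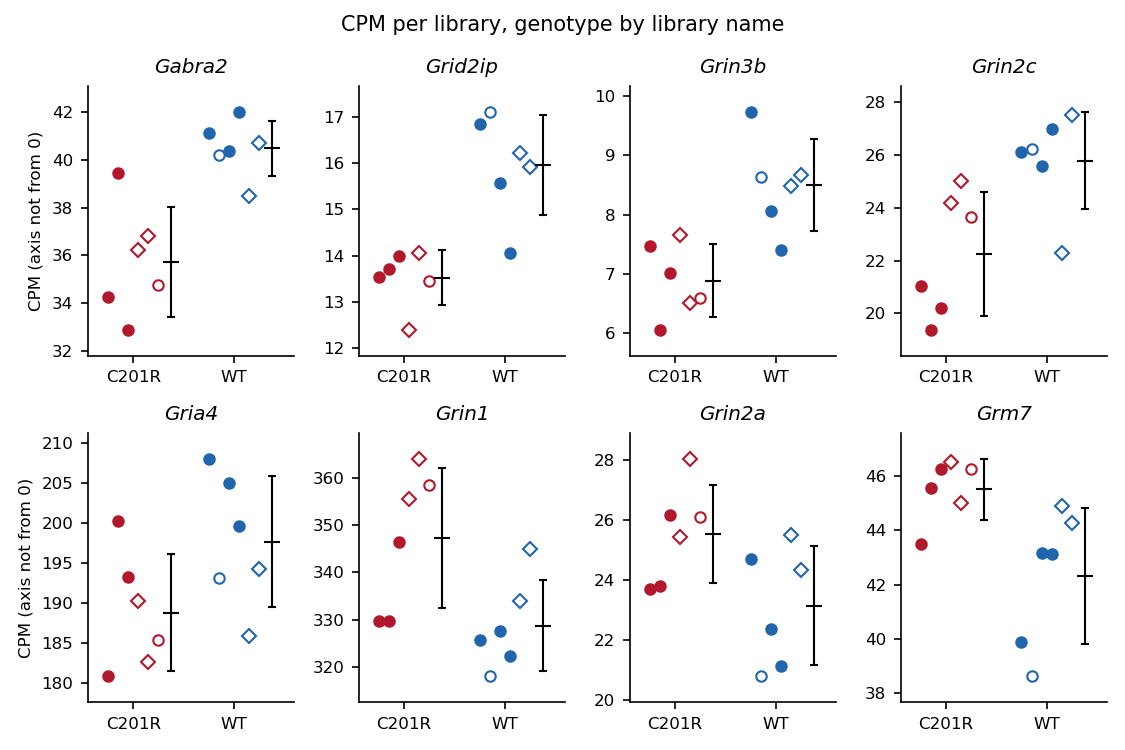
CPM per library of the 8 members with the lowest p by library name, with C201R (red) left of WT (blue), bars for mean and SD, diamonds for the 4 libraries whose labels disagree and filled symbols for libraries of high mt-Atp8. Grid2ip separates the genotypes, Gabra2 has 1 C201R library (39.5 CPM) inside the WT range, and the vertical axes do not start at 0.

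Among mGlu receptors, group I, which includes Grm5, couples to calcium release and groups II and III lower cyclic AMP, often at presynaptic terminals. Grm3, also found in glia, held 91.9 ± 0.665% of group II transcripts. In group III, Grm7 held 51.3 ± 2.03%, Grm4 39.1 ± 1.79% and Grm8 9.56 ± 0.982%. Without the scaling by transcript length Grm4 was slightly above Grm7, at mean expected counts of 1448 and 1400. Grm6, the receptor of retinal ON bipolar cells, was the mGlu gene under the count minimum.

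Grm7 had 43.5, 45.9 and 46.5 CPM in C201R libraries and 38.6, 43.2 and 44.9 CPM in WT libraries. Only library 1 of the C201R libraries lay inside the WT range, and the log2 difference was 0.09 ± 0.04 (edgeR adjusted p = 0.365). Grm5 had 95.1, 101 and 117 CPM in C201R libraries and 83.3, 101 and 116 CPM in WT libraries (log2 difference -0.01 ± 0.06, edgeR adjusted p = 0.965). Grm3 had 32.7, 34.1 and 36.4 CPM in C201R libraries and 30.6, 32.6 and 34.8 CPM in WT libraries, also with overlap (log2 difference 0.07 ± 0.04, edgeR adjusted p = 0.518).

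GABA-A alpha subunits help set where a receptor sits and how it responds to benzodiazepines. Gabra3 was the most abundant, with 39.9 ± 1.45% of alpha transcripts, followed by Gabra5, a subunit of many extrasynaptic receptors, with 21.7 ± 0.833%, and Gabra2 with 19.7 ± 1.31%. Gabra6, known from cerebellar granule cells, had no count. Many of these genes lie in clusters. In order along GRCm38, Gabrg1, Gabra2, Gabra4 and Gabrb1 lie together on chromosome 5, Gabra6 and Gabrb2 on chromosome 11, Gabrg3 and Gabra5 on chromosome 7, and Gabre and Gabra3 on the X chromosome.

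Gabra2 (alpha2), at chr5:70957597-71095849 (minus strand), was the member of lowest p. It had 34.3, 39.5, 32.9, 36.2, 36.8 and 34.8 CPM in C201R libraries 1, 2, 3, 4, 9 and 10, and 41.1, 40.2, 40.4, 42.0, 38.5 and 40.7 CPM in WT libraries 5, 6, 7, 8, 11 and 12. The groups overlapped only through C201R library 2 and WT library 11. The log2 difference was -0.19 ± 0.04 (edgeR adjusted p = 0.0823). DESeq2 called it at an adjusted p of 0.0119, and edgeR without library 2 at an adjusted p of 0.0313, while over the 24 other settings tried the adjusted p ran from 0.0119 to 0.664. With the mt-Atp8 set as a term it was 0.0535, and within the sets of high and low mt-Atp8 the log2 differences were -0.21 ± 0.07 and -0.14 ± 0.06 (edgeR adjusted p = 0.248 and 0.657). By title the log2 difference was -0.10 ± 0.06 (edgeR adjusted p = 0.799).

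As a share of alpha transcripts in TPM, Gabra2 was 18.6 ± 0.726% in C201R libraries and 20.8 ± 0.721% in WT libraries (SD, n = 6 each). The highest C201R share, 19.4%, was below the lowest WT share, 19.5%, and by title the shares overlapped. The share draws on the same counts as the test of Gabra2 and adds no separate support to it. Its neighbours in the chromosome 5 cluster had log2 differences of -0.15 ± 0.08 (Gabrg1), -0.11 ± 0.08 (Gabra4) and 0.10 ± 0.05 (Gabrb1), with edgeR adjusted p-values of 0.433, 0.624 and 0.494. The summed alpha level was 164 ± 4.72 TPM in C201R libraries and 164 ± 6.73 TPM in WT libraries.

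Some markers of motor neurons, which carry many of these receptors, moved with the genotype by library name. In a list of 16 genes, 15 were in the tables and none was at 0 in every library. Of these 15, 4 had a log2 difference above 0 and 11 below. By edgeR and by DESeq2 5 fell in C201R libraries (Chat, Lhx4, Chodl, Vipr2 and Ahnak2). The summed level of the list was 260 to 336 TPM in C201R libraries and 376 to 543 TPM in WT libraries, without overlap. The highest sums, in C201R library 2 and WT library 6, fell in the libraries with the highest ganglion marker sums (41.7 and 49.99 TPM). The part of ganglion RNA in the sum of this list was not tested. By title edgeR called 0 of these markers. The sums then overlapped, at 260 to 458 TPM in libraries titled C201R and 277 to 543 TPM in libraries titled WT. Of 10 pan-neuronal markers each had a log2 difference below 0. Of these, edgeR called 1, Stmn2, and DESeq2 called Stmn2 and Map2, with summed levels of 4641 to 5164 TPM in C201R libraries and 4834 to 5170 TPM in WT libraries. Of 8 astrocyte markers 2 had a log2 difference above 0 and 6 below, with a median of -0.03. Slc1a3, which encodes a glutamate transporter, rose in C201R libraries (log2 difference 0.18 ± 0.04, edgeR adjusted p = 0.0398), and Gjb6 was lower (-0.19 ± 0.05, edgeR adjusted p = 0.104, DESeq2 adjusted p = 0.0187). By title 3 of the 10 pan-neuronal and 5 of the 8 astrocyte markers had a log2 difference above 0, and edgeR called 0. Slc1a3 then had 0.02 ± 0.06 (edgeR adjusted p = 0.980) and Stmn2 -0.09 ± 0.05 (edgeR adjusted p = 0.801). Of the 9 markers of inhibitory and 8 of excitatory interneurons, edgeR and DESeq2 called 0, and 1 had an unadjusted p under 0.05. The part of these cell types in the values of Gabra2, Grid2ip, Grin3b, Grin2c and Grin1 was not tested.

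Other GABA-A genes, abundant or scarce, had overlapping groups. Gabra3 had 109, 114 and 116 CPM in C201R libraries and 102, 112 and 118 CPM in WT libraries (log2 difference 0.01 ± 0.03, edgeR adjusted p = 0.938). Gabrr2, a rho subunit known from retina and the highest in TPM of the minor GABA-A genes, had 1.06, 1.44 and 1.59 CPM in C201R libraries and 1.09, 1.32 and 1.64 CPM in WT libraries (log2 difference 0.04 ± 0.15, edgeR adjusted p = 0.939). Gabrd, the delta subunit of extrasynaptic receptors, stood just above the count minimum, with 0.439, 0.796 and 0.932 CPM in C201R libraries and 0.570, 0.658 and 0.919 CPM in WT libraries. Its 95% interval, from -0.52 to 0.42 on the log2 scale, holds differences of either sign.

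The GABA-B receptor needs both of its subunits: Gabbr1 binds GABA and Gabbr2 couples to the G protein. Gabbr1 was the most abundant member, at 314 ± 12.7 TPM and 85.6 ± 0.400% of GABA-B transcripts, and the steadiest, with an SD of log2 CPM of 0.0396. It had 490.1, 505 and 524 CPM in C201R libraries and 505, 519 and 535 CPM in WT libraries. These overlapped, with a log2 difference of -0.05 ± 0.03 (edgeR adjusted p = 0.481), and Gabbr2 gave 0.00 ± 0.03 (edgeR adjusted p = 0.993).

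By title, 0 of 42 members and 0% of all genes were called by edgeR, and 2 members (4.76%), Grin2c and Grin3a, had an unadjusted p under 0.05 beside 6.77% of all genes. DESeq2 called 18 genes by title (0.117%) and none of the members. The title groups overlapped for each of the 42 members, beside 0.349% of all genes without overlap. In the 8 libraries with matching labels edgeR called 0 of 42 members, beside 0.163% of all genes, and 8 members (19%) had an unadjusted p under 0.05 beside 13% of all genes. Groups did not overlap for 5 members (11.9%), beside 8.53% of all genes, with Gabra2, Grid2ip and Grin2c lower (4.71% of all genes) and Grin1 and Grm7 higher (3.82% of all genes) in C201R libraries. In these libraries Grin2c had the largest log2 difference below 0, -0.31 ± 0.07 (edgeR adjusted p = 0.120), and was called by DESeq2 (adjusted p = 0.0246, beside 1.66% of all genes) and by edgeR without library 10 (adjusted p = 0.0277). These comparisons share libraries with each other, so their results do not add to one another.

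Some members differed between the libraries of high and of low mt-Atp8. With genotype by library name and titled sex as terms, edgeR called 5 of 42 members (11.9%), beside 9.37% of all genes tested, and all 5 were higher in the libraries of high mt-Atp8, beside 6.25% of all genes. Of these, 3 are described: Gabrg1 and Gabra4, which are GABA-A subunits, and Grm5. Gabrg1 averaged 35.4 ± 3.42 CPM in high and 29.9 ± 0.863 CPM in low mt-Atp8 libraries (log2 difference 0.21 ± 0.05, edgeR adjusted p = 0.0243, n = 6 each). Gabra4 averaged 17.4 ± 1.39 CPM in high and 15.02 ± 0.519 CPM in low mt-Atp8 libraries (log2 difference 0.20 ± 0.05, edgeR adjusted p = 0.0388). Grm5 averaged 111 ± 7.23 CPM in high and 94.9 ± 6.70 CPM in low mt-Atp8 libraries (log2 difference 0.18 ± 0.04, edgeR adjusted p = 0.0199). Its transcript length also differed between these sets, as described below.

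Within the high set, library 1 had the lowest value of each of the 3 genes and lay inside the range of the low set. For Gabrg1 it had 29.8 CPM, beside a highest value of 30.7 CPM in the low set. Leaving out each library gave 1 to 7 called members of the 42, with 1 left without library 9 and 2 without library 5 or without library 10. Over the 14 other settings, Grm5 was called in 12, Gabrg1 in 11 and Gabra4 in 4. With the mt-Atp8 set as a term, the genotype comparison by library name called 0 of 42 members, beside 2.1% of all genes, and 12 members (28.6%) had an unadjusted p under 0.05 beside 17.1% of all genes.

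**Figure D5:**
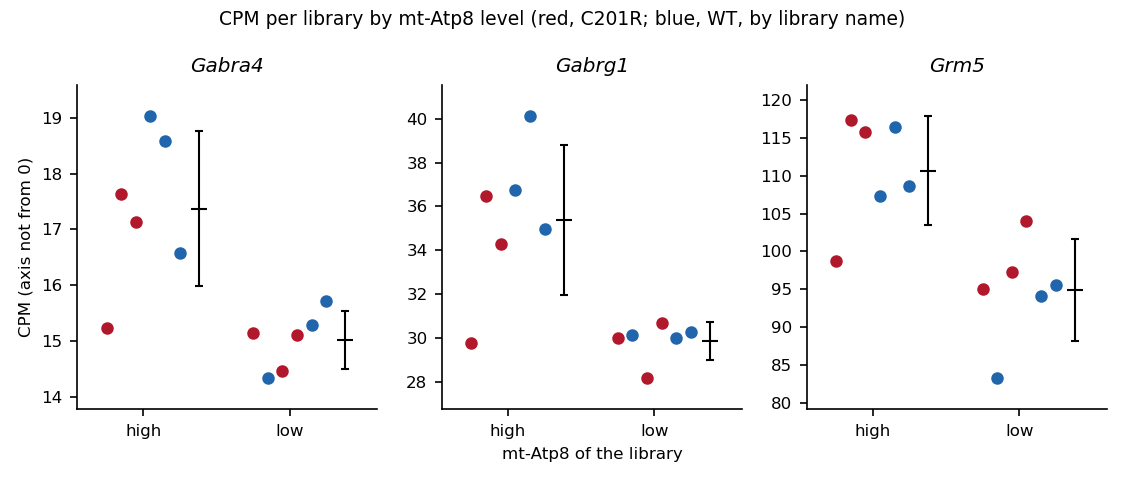
CPM per library of Gabra4, Gabrg1 and Grm5, called between libraries of high (left) and low (right) mt-Atp8, coloured by genotype (C201R red, WT blue), with mean and SD as bars. Both genotypes lie on both sides, and in each panel the lowest point of the high set is library 1. The vertical axes do not start at 0.

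The transcript length that RSEM gives for a gene, the mean over its transcripts weighted by their abundance, is a measure of which transcripts were in use. It varied for 32 members, and for 0 of them did the genotypes by library name separate, beside 0.298% of all genes with a varying length. Between the mt-Atp8 sets it separated for 2 members, among them Grm5, beside 4.08% of all genes. Grm5 averaged over longer transcripts in the high set. It had 5429 to 5744 bases in the high set and 4900 to 5257 bases in the low set. Its count was also called between these sets. A count rises with transcript length, so the count and the length are not separate observations. The summed group I level scaled by length (RPKM), which includes Grm5, was 26.5 to 29.5 in the high set. It was 24.85 to 28.7 in the low set, with overlap. The part of length in the count difference of Grm5 was not tested.

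Proteins that assemble, anchor or accompany the receptors were followed through 7 lists, with 90 genes tested. By edgeR, 0 were called by library name, where 13 (14.4%) had an unadjusted p under 0.05 beside 12.8% of all genes, and 0 by title, where 1 (1.11%) had beside 6.77%. DESeq2 called 2 of these genes by library name (2.22%), Grid2ip and Trak2, beside 2.29% of all genes, and 0 by title. The auxiliary subunits of AMPA and kainate receptors had 10 of 21 log2 differences above 0, with a median of -0.01, and Neto1, which shapes kainate receptor gating, had the lowest p (log2 difference -0.15 ± 0.05, edgeR adjusted p = 0.198). The excitatory scaffold list had 10 of 26 above 0 (median -0.04), and after Grid2ip its lowest p was that of Homer2, an adaptor of group I mGlu receptors (-0.14 ± 0.05, edgeR adjusted p = 0.234). Partners of delta and mGlu receptors had 6 of 11 above 0 (median 0.02), led by Cbln2, a cerebellin (-0.18 ± 0.05, edgeR adjusted p = 0.127).

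On the inhibitory side, the postsynaptic and trafficking list had 5 of 16 above 0 (median -0.01). Its lowest p was that of Trak2, which binds kinesin and has been found with GABA-A receptors, at 322 ± 9.82 CPM in C201R libraries and 350.2 ± 8.53 CPM in WT libraries (-0.11 ± 0.03, edgeR adjusted p = 0.0969, DESeq2 adjusted p = 0.00536). GABA-B partners and effector channels had 4 of 10 above 0 (median -0.03), led by Kctd8, an auxiliary GABA-B subunit (-0.17 ± 0.07, edgeR adjusted p = 0.323). Of the other GABA-A class subunits, Gabrq was tested (-0.08 ± 0.07, edgeR adjusted p = 0.692). The glycine receptor genes had 1 of 5 above 0 (median -0.04), led by Glrb, the beta subunit (-0.07 ± 0.07, edgeR adjusted p = 0.737). The median over all genes tested was 0.00.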

How the data were processed

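PolyA RNA of whole spinal cord was sequenced in 12 libraries with stranded kits, per the labels' protocols. Bowtie2 2.2.0 and RSEM 1.2.12 were used, per the submitters' processing notes. Neither label nor header names the genome build. The authors deposited, per the file headers, for each gene an expected count, which divides reads that fit several genes, a TPM value, and a length; the deposited FPKM was not used. Positions and sequences came from GENCODE M21 on GRCm38, by Ensembl ID, and 16 members share exon sequence with another gene in the tables.

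Expected counts were rounded, kept by filterByExpr with the 4 titled groups (17765 genes), scaled by TMM and tested with edgeR 4.0.16 in R 4.3.3 (quasi-likelihood test, titled sex as a term, Benjamini-Hochberg adjustment over all genes, threshold 0.05). SEs were derived from the F statistic and the fitted difference. Levels between genes used deposited TPM, without a test. The fits were run on simulated data with larger differences than any member had by library name or by title. That run does not show how often differences as small as those of the members would be called. Alternatives were DESeq2 1.42.0, RLE size factors, other filters, limma 3.58.1 on log2(TPM + 1) and log2(TPM + 0.1), other terms, RPKM, and leaving out libraries. Everything on mt-Atp8, and leaving out 4 libraries rich in muscle transcripts, was chosen after seeing the data. None of the 66 pairs of libraries agreed within sampling noise (lowest chi-square over degrees of freedom, 6.50).

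The members and lists were chosen with earlier results of these data known. Per-library values are given for the 8 members of lowest p by library name, the 4 by title, the highest in TPM of most families and those next to the count minimum, and for each list the gene of lowest p. Gria3, Grik1 and the members called between mt-Atp8 sets were added after their values were seen. Some members and markers are not reported here by name, although they stay in all counts and sums.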

Additional observations from a re-analysis of the deposited data

Results flagged for a closer look

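In each genotype, by library name and by title, every member was checked for a library far from the other 5, which made 168 groups. Chance alone flags about 1 in 20 groups, and 4 values were flagged, fewer than chance alone would give. Gabrg3, a GABA-A gamma subunit, had 23.7 CPM in C201R library 2, where the other C201R libraries by name had 19.2 to 20.8 CPM. Grid2ip had 12.4 CPM in library 4, below the 13.5 to 14.1 CPM of the other C201R libraries by name. Grin2c had 22.3 CPM in library 11, below the 25.6 to 27.5 CPM of the other WT libraries by name, and library 11 is titled C201R. Grid1 had 56.1 CPM in library 9, above the 53.7 to 54.4 CPM of the other libraries titled WT, and library 9 is named C201R.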

How the results depend on the processing

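By library name, edgeR called 0 members, DESeq2 called 2, the fit with the library number as a linear term called 1 and the fit without titled sex called 1, and leaving out each library gave 0 to 1. In the 8 libraries with matching labels, DESeq2 called 1 member instead of 0, and leaving out each library gave 0 to 1. By title no setting called a member. Over all genes by library name, DESeq2 called 335, the fit with the mt-Atp8 set as a term 373, the fit with the library number 235 and limma on log2(TPM + 1) 41, against 127 by edgeR (54 to 84 without library 1, 3, 4, 5, 7, 8 or 12, and 221 without library 9), and without 4 libraries rich in muscle transcripts 12 were called. Leaving out each library gave 5 to 119 called genes in the libraries with matching labels, against 29, and 873 to 1730 between the mt-Atp8 sets, against 1664. None of the 8 named members of lowest p by library name changed sign in the 24 other settings. Grik4 by title changed sign within the libraries of high mt-Atp8, to 0.0063 on the log2 scale, and the cause was not tested. Shares of a family in RPKM and in TPM agree by construction, because the scale of a library cancels in a share. Their agreement is therefore no check on the shares, and family levels in the 2 units are on different scales. No paired analysis was possible because the titles number the libraries 1 to 12 and the genotypes share no number. Depth limits most the members of lowest count, Gabrd and Gabrr2, and values of genes that share exons with a neighbour may hold its reads.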
